A study of Mus musculus with 18 samples.

Results

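The genes described here are the developmental transcription factors of the Fox, Pax, Lhx, Gata and Nkx families. They were taken by symbol from the autosomal protein-coding genes of the GENCODE M21 annotation: Fox with a letter and a number, Pax, Lhx, Gata or Nkx with a number. This gave 76 of 20722 genes, of which 41 were Fox, 9 Pax, 7 Lhx, 5 Gata and 14 Nkx genes, and 1 gene with such a name was left out by the rule. The rule itself uses no methylation value.

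The cells were mouse embryonic stem cells lacking their own Dnmt1 (1KO) that carried a DNMT1 transgene from the pPyCAGIP vector under puromycin selection. DNMT1 is the enzyme that copies CpG methylation onto the new DNA strand after replication. The transgene was wild type (WT) or carried alanine in place of tryptophan at W796, at W465, at W464 and W465, at W465 and W796, or at W464, W465 and W796. These groups are written WT, W465A, W796A, W465A/W796A, W464A/W465A/W796A and W464A/W465A, and each had 3 libraries labelled as biological replicates. All groups therefore shared the deleted endogenous gene, the vector, the selection and a serum medium with leukemia inhibitory factor. Several stable lines were made per group, and the labels do not say whether each library came from a line of its own, so the p-values measure the spread between libraries. The counts hold no sequence of the transgene, so the amino acid changes and the amount of DNMT1 were not checked here. As background, W464 and W465 lie in the replication foci targeting domain of DNMT1 and W796 in its first bromo-adjacent homology domain, both of which bind modified histone tails.

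Fox proteins bind DNA through a forkhead domain, Pax proteins through a paired domain, Lhx and Nkx proteins through a homeodomain and Gata proteins through zinc fingers. Most of them set up a tissue in the embryo and are silent in embryonic stem cells, where their CpG islands are typically held by Polycomb complexes and are free of DNA methylation. A smaller set, such as Foxk1, Foxo3 and Foxp1, is transcribed in many cell types. RNA was not measured in these libraries.

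The assay was enhanced reduced representation bisulfite sequencing: DNA is cut with MspI, BfaI and MseI, treated with bisulfite and sequenced. The level of a region is the share of reads at its CpGs that were methylated, summed over the CpGs with at least 5 reads in all 18 libraries. The libraries held 59776439 to 138978763 CpG calls, with a median of 12 to 29 reads at the 1424423 CpGs that passed. A promoter is the 500 bp either side of a start site, and a body is the gene with 2 kb on either side, outside the promoter. With at least 3 passing CpGs required, 74 of the 76 bodies and 71 of the 76 promoters were tested, and no CpG counted for more than 1 of these genes. The body of Foxi1 and that of 1 other gene, and the promoters of Foxd4, Foxh1, Foxq1, Nkx2-6 and Pax4 were not tested. A tested body had 6 to 369 CpGs, and no library held fewer than 43 reads in one. A tested promoter had 3 to 98 CpGs, with at least 18 reads. Of 10 promoters of embryonic stem cell markers, 7 were covered, and their mean levels lay between 0 and 11.99% in the 6 groups. The mean level of a library over all shared autosomal CpGs differed within groups. It was 41.0, 52.4 and 49.7% in the WT libraries and 38.1, 55.2 and 50.6% in the W796A libraries. Replicate 1 was the lowest of both groups, and it was the highest of the W465A libraries at 25.2% against 17.4 and 17.9%. The part of this library level in the differences between genes was not tested beyond the offset described below.

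The promoter sequences below show the range of CpG content and methylation in these families, 5′ to 3′ in the direction of the gene, from GRCm38, with every CG in capitals. Each window has 200 bases and holds no annotated UTR base. Foxs1 (chr2:152932782-152932981, minus strand, coding exon) was one of the 4 promoters above 60% in WT and the one of these with the most passing CpGs. Foxj3 (chr4:119539883-119540082, plus strand, outside coding exons) had the most passing CpGs among promoters under 2% in every library. Foxb2 (chr19:16873806-16874005, minus strand, upstream of the start) was the promoter called higher in W796A. Lhx3 (chr2:26206616-26206815, minus strand, upstream of the start) and Nkx2-5 (chr17:26841094-26841293, minus strand, coding exon) were partly methylated in WT.
Foxs1: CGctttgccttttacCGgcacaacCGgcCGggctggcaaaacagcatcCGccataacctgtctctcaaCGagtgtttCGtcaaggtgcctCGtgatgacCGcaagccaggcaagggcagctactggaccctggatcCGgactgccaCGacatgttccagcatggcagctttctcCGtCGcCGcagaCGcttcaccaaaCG
Foxj3: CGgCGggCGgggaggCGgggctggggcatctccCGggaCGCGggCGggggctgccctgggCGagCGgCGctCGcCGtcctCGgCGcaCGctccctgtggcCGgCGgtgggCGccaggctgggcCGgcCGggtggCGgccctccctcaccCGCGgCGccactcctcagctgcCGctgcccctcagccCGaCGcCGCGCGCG
Foxb2: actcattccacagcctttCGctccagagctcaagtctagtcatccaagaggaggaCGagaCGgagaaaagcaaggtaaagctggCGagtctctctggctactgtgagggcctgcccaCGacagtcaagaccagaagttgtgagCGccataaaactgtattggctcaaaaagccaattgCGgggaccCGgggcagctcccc
Lhx3: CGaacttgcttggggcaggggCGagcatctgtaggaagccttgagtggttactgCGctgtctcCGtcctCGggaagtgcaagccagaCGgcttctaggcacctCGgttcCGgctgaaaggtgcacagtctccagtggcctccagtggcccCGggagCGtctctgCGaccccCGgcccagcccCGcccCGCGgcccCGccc
Nkx2-5: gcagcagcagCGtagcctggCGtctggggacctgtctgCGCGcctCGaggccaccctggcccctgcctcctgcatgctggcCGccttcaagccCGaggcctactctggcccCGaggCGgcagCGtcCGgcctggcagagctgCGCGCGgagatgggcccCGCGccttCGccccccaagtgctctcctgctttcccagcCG
The windows hold 16 CG in Foxs1, 32 in Foxj3, 8 in Foxb2, 16 in Lhx3 and 18 in Nkx2-5, of which 12, 26, 6, 6 and 7 passed the read minimum. Over these CpGs the WT level was 71.3% ± 18.5 in Foxs1, 0.276% ± 0.0592 in Foxj3, 7.22% ± 2.71 in Foxb2, 17.6% ± 3.79 in Lhx3 and 19.2% ± 4.25 in Nkx2-5 (SD, n = 3). Foxj3, the most CpG-rich window, stayed at or under 0.46% in all 18 libraries. Across the 71 promoters the number of CpGs per 100 bp and the WT level had a Spearman rho of -0.74, and across the 74 bodies the number of CpGs per kb and the WT level had one of -0.81. These are descriptions over genes that share the same libraries. WT levels of promoter and body had a rho of 0.23 over the 69 genes with both.

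With WT DNMT1 the bodies of these genes were little methylated. Their median level was 14.2%, against 65.6% over all 16714 bodies tested, and the medians of the single WT libraries were 11.99 to 18.7% and 55.1 to 73.1%. A WT body level under 20% was found in 40 of the 74 bodies and in 2005 of all 16714. By family the median WT body level was 30.0% for Pax, 25.6% for Gata, 20.1% for Fox, 13.0% for Lhx and 5.15% for Nkx genes. The bodies of 4 genes, Foxd1, Foxe3, Nkx2-3 and Nkx2-4, stayed under 2% in every library, as did 121 of all 16714. At the other end stood Foxj3 with 72.5, 83.6 and 85.2% in the WT libraries and Foxs1 with 56.4, 72.8 and 82.9%. A further list of 66 developmental transcription factors from other families, such as Tbx and Sox, had a median WT body level of 9.24%, and 28 Polycomb complex genes had one of 37.5%.

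**Figure D1:**
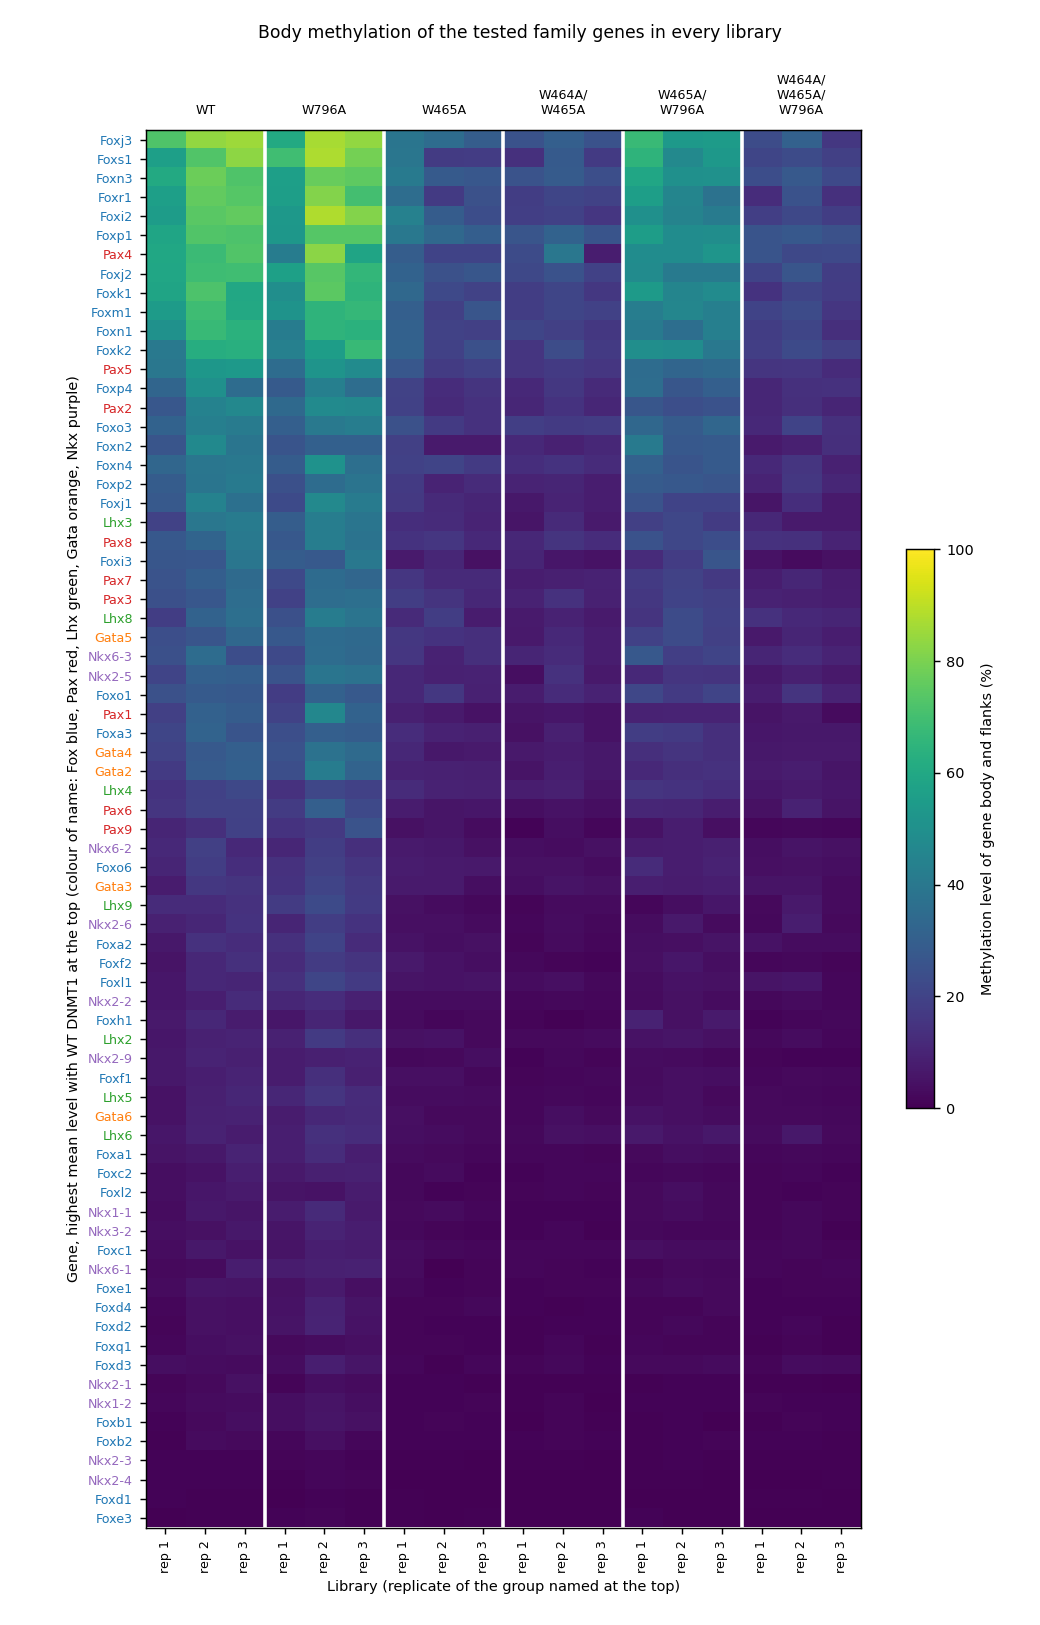
Body methylation level (%, colour) of 73 of the 74 tested genes (rows, ordered by mean WT level, with names coloured by family) in each of the 18 libraries (columns, by group). The upper rows, such as Foxj3 at 72.5 to 85.2% in WT, are lower in W465A, W464A/W465A and W464A/W465A/W796A than in W465A/W796A, and the lowest rows, such as Foxd1, stay under 2% in every library.

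The low levels reached far from the start site. Within 250 bp of a start site the summed WT level was 2.82% ± 0.545 in these genes and 3.56% ± 0.647 in all other genes (SD, n = 3). At 1000 to 2000 bp it was 7.40% ± 1.79 against 32.8% ± 5.01, and at 2000 to 5000 bp 14.4% ± 2.71 against 49.5% ± 6.10. Beyond 5000 bp it was 49.8% ± 6.72 against 59.6% ± 7.20. The low zone around a start site was thus wider in these families, and the gap to other genes was largest between 1000 and 5000 bp. Exons outside the promoter stood at 9.80% ± 1.95 in these genes and 43.3% ± 5.43 in others, and introns at 38.6% ± 5.06 and 57.4% ± 7.11. Body CpGs with over 20 CpGs within 250 bp had a WT level of 4.59% ± 1.42 in these genes and 10.5% ± 2.56 in others. Those with 1 to 5 CpGs around them had 73.6% ± 9.24 and 73.9% ± 8.24. At these sparse CpGs the levels of the families and of other genes lay close together, and their difference within libraries was not tested. Body CpGs with 11 to 20 CpGs around them had 53.4% ± 8.44 and 64.1% ± 8.25.

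**Figure D2:**
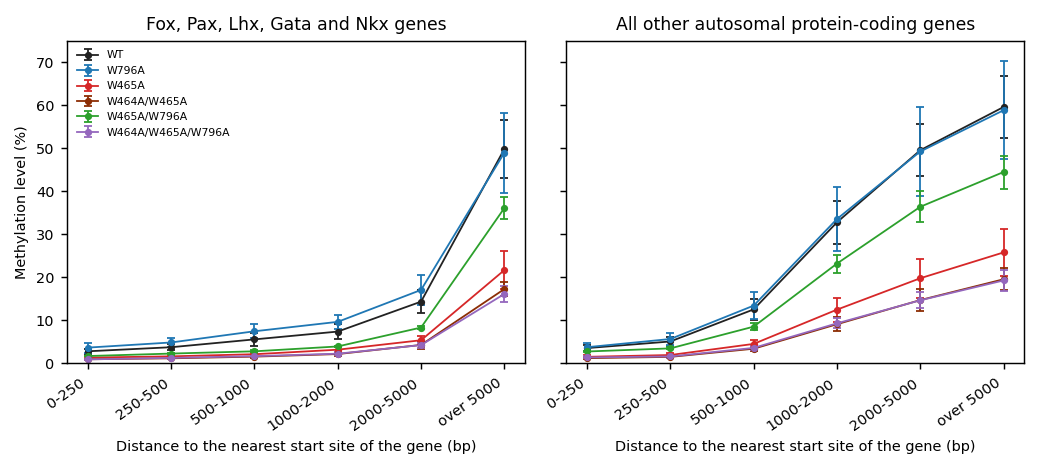
Methylation level (%) by distance to the nearest start site of the gene, for the family genes (left) and all other autosomal protein-coding genes (right), as mean and SD of 3 libraries per group. In WT the left curve stays at 14.4% at 2000 to 5000 bp, where the right one has reached 49.5%.

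The first comparison asks what W465A in the replication foci targeting domain does to these genes. A gene is called if its adjusted p is under 0.05 and the levels, each pooled over the reads of a group, lie 10 percentage points or more apart, and all comparisons with WT share the WT libraries. In W465A 35 of the 74 bodies fell, where 90.4% of all bodies were called lower. The median body level was 6.32%, against 14.2% in WT and 25.1% over all genes. All 34 bodies at or above 20% in WT fell, with adjusted p between 2.77e-05 and 0.00283, as did 99.5% of all bodies at that level. Of the 40 bodies under 20% only Pax6 passed, where 23.5% of all such bodies did. A body under 10% in WT, as 30 of these were, cannot lose 10 points. Without the minimum difference 71 bodies were called lower, against 97.3% of all. As a share of WT, the median body level in W465A was 39.8% for these genes and 41.0% for all genes.

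The largest falls were in Foxj3, a widely expressed forkhead factor, and in Foxs1, Pax4, Foxr1 and Foxk1. Foxj3 had 38.8, 35.5 and 29.5% in the W465A libraries and fell by 47.4 points with an adjusted p of 3.36e-05. Pax4, a factor of pancreatic endocrine cells, had 59.7, 68.2 and 72.9% in WT and 29.5, 20 and 20% in W465A over 6 CpGs. The libraries of WT and W465A did not overlap in any of the 35 called bodies, and W465A lay wholly below WT in 67 of the 74 bodies and in 95.9% of all. The falls in Gata4, a cardiac and endoderm factor, went from 25.9% ± 5.62 to 8.30% ± 2.52, and in Pax6, needed for the eye, from 18.2% ± 2.36 to 6.51% ± 1.12 (SD, n = 3). With an offset for the overall level of each library, which asks for a change beyond that of the library, 4 of the 74 bodies were called lower, against 6008 of all 16714: Foxj3, Foxk1, Foxr1 and Foxs1.

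In W464A/W465A 41 bodies fell, where 91.6% of all bodies were called lower, and in W464A/W465A/W796A 39 fell, where 91.7% were. The median body levels were 4.04% and 4.35%, or 29.2% and 30.3% of WT by the median gene. All 34 bodies at or above 20% in WT fell in both. In W464A/W465A the list also held Foxa2, Foxo6, Lhx4, Lhx9, Nkx6-2, Pax6 and Pax9. Foxa2, which opens chromatin in the endoderm, had 6.32, 14.3 and 12.8% in WT and 1.41, 2.85 and 1.65% in W464A/W465A. In W464A/W465A the largest differences from WT were -55.0 points in Foxj3, -52.6 in Foxi2, -50.8 in Foxr1, -49.2 in Foxs1 and -47.7 in Pax4. In W464A/W465A/W796A they were -59.6 points in Foxj3, -53.9 in Foxr1, -51.2 in Foxi2, -48.7 in Foxk1 and -48.2 in Foxs1. Foxj3 thus led both comparisons. With no minimum difference 70 bodies were called lower in each, where 97.8% and 98.1% of all were. W464A/W465A lay wholly below WT in 70 of the 74 bodies (97.6% of all) and W464A/W465A/W796A in 67 (97.6% of all). The smallest falls in W464A/W465A among bodies above 20% were those of Pax3 with -17.5 points, Foxo1 with -17.6 and Gata5 with -18.5. Under the offset for library level Foxo3 was called higher and Foxi2, Foxj3, Foxk1 and Foxr1 lower in W464A/W465A, where 98 of all 16714 bodies were higher and 6539 lower. In W464A/W465A/W796A, Lhx8 was then higher and Foxj3, Foxk1 and Foxr1 lower, where 73 of all bodies were higher and 6954 lower.

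Against W465A, W464A/W465A had a lower mean in 68 of 74 bodies and a higher one in 6, with a median difference of -1.55 points. Over all bodies 6.39% had a higher mean, and the median difference was -6.21 points. No body of any gene was called (0% of all) by the quasi-binomial fit. Unadjusted p was under 0.05 in 5 of these bodies and in 824 of all 16714, and limma and edgeR also called 0 of them. The libraries did not overlap, with W464A/W465A lower, in 20 of these bodies and 30% of all. W464A/W465A/W796A against W464A/W465A gave 0 calls in these genes by all of the same tests, with 0 at an unadjusted p under 0.05. Of the means 38 were higher and 36 lower, where 45.6% of all bodies had a higher mean, and 0% of all bodies were called. Libraries did not overlap in 3 bodies with W464A/W465A/W796A higher (2.58% of all) and in 1 with it lower (3.09% of all). For W464A/W465A/W796A against W464A/W465A no difference in these genes was detectable.

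With W796A alone, 0 of the 74 bodies were called in either direction by the quasi-binomial fit, by limma or by edgeR, or with the replicate number as block in the libraries of both groups, and 0% of all bodies were called by the quasi-binomial fit. The mean was higher than in WT in 55 of 74 bodies and lower in 19, where 49.1% of all bodies were higher. Unadjusted p was under 0.05 in 16, which were all higher in W796A, against 2.36% of all bodies in either direction. The libraries did not overlap in 9 bodies, with W796A higher, against 0.868% of all, and in 0 with W796A lower, against 0.521% of all. They included Foxb1, Foxd2, Foxd4, Foxl1, Lhx5, Lhx9, Nkx1-1 and Nkx1-2. The largest difference of the 9 was in Foxl1, a factor of gut mesenchyme, with 6.13, 10.99 and 10.2% in WT and 13.8, 20.9 and 17.1% in W796A (adjusted p = 0.94). Lhx5, a factor of the developing brain, had 4.73, 8.65 and 10.7% in WT and 10.9, 15.4 and 12.4% in W796A (adjusted p = 0.847). Among the 24 bodies between 2 and 10% in WT the median W796A level was 149% of WT, and over all 824 bodies in that range it was 110%. Among the 11 bodies above 60% it was 99.5%, as over all genes in that range. Over bodies of every WT level the median share of WT was 115% in these genes and 99.8% over all genes. In the 66 other developmental transcription factors, with a median WT level of 9.24%, it was 142%, so the higher levels were not particular to these families.

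**Figure D3:**
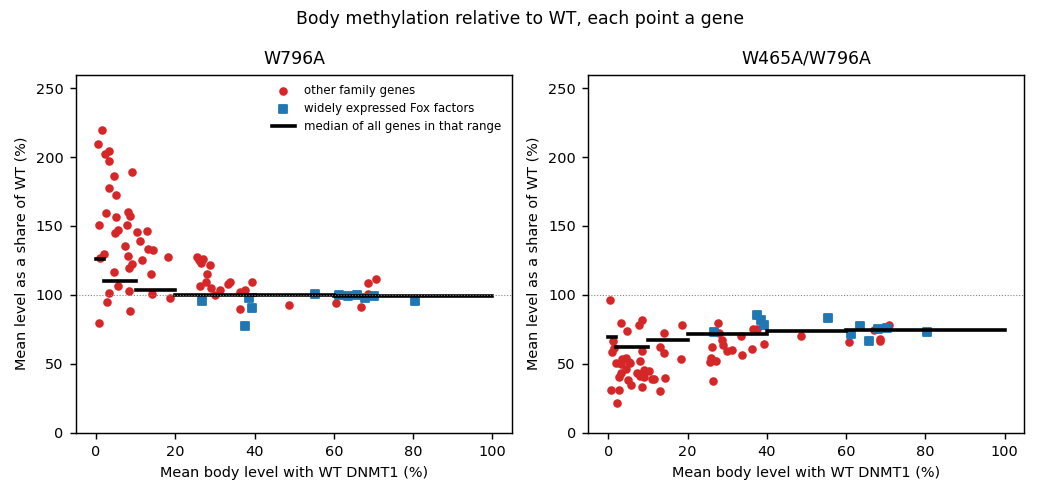
Mean body level in W796A (left) and W465A/W796A (right) as a share of the WT mean (%), against the WT mean (%), each point a gene and each bar the median of all genes in that range of WT level. In W796A most of the low family genes lie above the bar, and in W465A/W796A most lie below it, while the widely expressed Fox factors stay near the bars.

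The double mutant W465A/W796A asks whether W796A alters the loss seen with W465A. Its median body level was 8.94%, against 6.32% in W465A and 14.2% in WT, and over all genes it was 47.0%. Against W465A, 19 of the 74 bodies rose, where 64.6% of all bodies were called higher. All 19 were among the 34 bodies at or above 20% in WT, and over all genes at that level 73.1% rose. Foxs1 rose by 31.2 points, to 65.2, 46.9 and 53.4% from 39.4, 17.4 and 17.8%. Foxk1 had 54.4, 45.4 and 48.1% in W465A/W796A and 33.9, 22.0 and 19.8% in W465A, a rise by 25.0 points (adjusted p = 0.0106). The other large rises were those of Pax4 by 26.4 points, Foxj3 by 24.8 and Foxn2 by 22.2. The libraries of the groups did not overlap in any of the 19, and W465A/W796A lay wholly above W465A in 41 of the 74 bodies and in 83.3% of all. When W465A replicate 3 or W465A/W796A replicate 1 was left out, 0 of these bodies and 0 of all 16714 were called. With the offset for library level 0 of these and 53 of all were called. With no minimum difference 25 of these bodies were called higher, where 70.6% of all were.

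Against WT, W465A/W796A was lower in 20 of the 74 bodies, where 52.8% of all bodies were called lower, and in 58.8% of those at or above 20% in WT, where 59.7% of all were. The adjusted p values of the 20 lay between 0.0223 and 0.0453. The largest differences were -24.6 points in Foxr1, -24.5 in Foxi2, -22.8 in Foxj2, -22.6 in Foxj3 and -21.8 in Foxn1, the thymus epithelium factor. With no minimum difference 47 bodies were called lower, where 57.2% of all were. W465A/W796A lay wholly below WT in 50 of the 74 bodies and in 59.4% of all, and among the 20 called ones the libraries overlapped in Lhx3. By limma 9 of these bodies and 5408 of all 16714 were called lower, and with the offset 0 of these and 519 of all. Without WT replicate 2, WT replicate 3, W465A/W796A replicate 2 or W465A/W796A replicate 3 the count was 0, both in these genes and over all bodies. The share of the difference between WT and W465A that was regained in W465A/W796A lay between 15.1 and 79.8% over the 34 bodies at or above 20% in WT. Its median was 47.9%, and 54.7% over all genes at that level. Among the less methylated bodies 6 had a lower mean in W465A/W796A than in W465A, such as Foxa2 with 4.33% against 4.41%. For bodies between 2 and 10% in WT, W465A/W796A stood at 45.9% of WT by the median gene, and all genes in that range stood at 62.1%. Over bodies of every WT level this share was 60.3% in these genes, 49.6% in the other developmental transcription factors and 73.5% over all genes.

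In the group of 11 widely expressed Fox factors, the median body level was 61.3% in WT and 61.1% in W796A. It was 25.1% in W465A, 43.9% in W465A/W796A, 19.6% in W464A/W465A/W796A and 18.6% in W464A/W465A. All 11 stood at or above 20% in WT. All 11 fell in W465A, in W464A/W465A/W796A and in W464A/W465A, where 99.5, 99.9 and 99.9% of all bodies at that level did. In W465A/W796A 6 fell, where 59.7% of all bodies at that level did. Against W465A, 10 of the 11 rose in W465A/W796A, where 73.1% of all bodies at that level did. The other, Foxo1, a target of insulin signalling, had 11.1, 16.1 and 9.04% in W465A and 21.1, 16.8 and 20.6% in W465A/W796A, a difference of 8.32 points that missed the minimum alone (adjusted p = 0.0211). Foxp1, which acts in many lineages, had 58.7, 72.9 and 72.3% in WT, 40.2, 33.8 and 30.1% in W465A and 55.7, 48.6 and 48.9% in W465A/W796A. Foxo3, a stress-response factor, had 31.3, 43.1 and 41.5% in WT, 24.7, 17.0 and 14.1% in W465A and 33.2, 28.7 and 33.0% in W465A/W796A. In both genes W465A/W796A lay above W465A in every library. The promoters of the 11 had a median of 0.431% in WT.

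In the group of 20 neural genes the median body level was 13.5% in WT, 5.01% in W465A and 7.07% in W465A/W796A. At or above 20% in WT were 7 of the 20. The fall was called for 8 of the 20 in W465A (90.4% of all bodies) and for 11 in W464A/W465A (91.6% of all bodies). The rise of W465A/W796A over W465A was called for Pax2, a factor of kidney and midbrain, and Pax5, the B cell and midbrain factor (64.6% of all bodies). Pax5 had 39.7, 52.8 and 53.6% in WT, 27.2, 17.3 and 19.4% in W465A and 35.5, 32.7 and 34.1% in W465A/W796A. Pax7, a neural crest and muscle stem cell factor, fell from 30.0% ± 4.65 to 13.3% ± 2.22 in W465A and stood at 17.8% ± 1.84 in W465A/W796A. Pax3, its close relative, stood at 29.0% ± 5.85, 14.8% ± 3.51 and 18.5% ± 1.91 in the same order (SD, n = 3). Lhx3 had 19.9, 39.5 and 41.7% in WT, 13.1, 12.2 and 9.85% in W465A and 18.8, 21.2 and 17.3% in W465A/W796A. Lhx2, a factor of eye and forebrain, had 8.45% ± 2.08 in WT and 3.95% ± 1.16 in W465A, Nkx2-2, of the ventral neural tube, 8.95% ± 3.13 and 3.37% ± 0.0924, and Nkx6-1, of motor neurons and beta cells, 4.57% ± 2.96 and 1.57% ± 1.26 (SD, n = 3). None of these last 3 was called in any comparison, but under 10% in WT they could not lose 10 points. Without the minimum difference 19 of the 20 neural bodies were called lower in W465A (97.3% of all bodies) and 19 in W464A/W465A (97.8% of all). In W464A/W465A/W796A all 20 were (98.1% of all), and in W465A/W796A 13 were (57.2% of all).

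In the 9 endoderm genes the median body level was 11.2% in WT, 4.41% in W465A and 4.33% in W465A/W796A. At or above 20% in WT were 4 of the 9. The fall in W465A was called for Foxa3, Gata4, Gata5 and Pax8, the thyroid and kidney factor (90.4% of all bodies). The rise of W465A/W796A over W465A was called for Pax8 alone among the 9 (64.6% of all bodies). Pax8 had 27.5, 32.3 and 40.4% in WT, 14.8, 15.9 and 11.5% in W465A and 25.4, 21.4 and 23.8% in W465A/W796A. Foxa1, a partner of Foxa2, had 5.42, 6.58 and 9.92% in WT and 2.86, 2.44 and 1.90% in W465A. Gata6, of the primitive endoderm, had 7.93% ± 2.65 in WT and 3.05% ± 0.904 in W465A, and Nkx2-1, of lung and thyroid, 2.81% ± 1.66 and 0.815% ± 0.267 (SD, n = 3). Foxa1, Gata6 and Nkx2-1 were called in no comparison, but bodies under 10% in WT cannot lose 10 points. Without the minimum difference all 9 endoderm bodies were called lower in W465A (97.3% of all bodies) and in W464A/W465A (97.8% of all). The same held in W465A/W796A (57.2% of all) and in W464A/W465A/W796A (98.1% of all).

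Of the 12 tested heart and mesoderm genes, 3 fell in W465A (90.4% of all bodies) and 0 rose in W465A/W796A against W465A (64.6% of all bodies). The 3 were the members of this group at or above 20% in WT, while 5 of the 12 were under 10% and could not lose 10 points. Without the minimum difference all 12 were called lower in W465A (97.3% of all bodies). Still 0 were then higher in W465A/W796A than in W465A (70.6% of all). The medians of the 12 were 10.9% in WT, 16.1% in W796A, 4.84% in W465A and 4.51% in W465A/W796A. Nkx2-5, the early heart factor, had 20.7, 30.8 and 29.7% in WT, 11.1, 9.14 and 9.45% in W465A and 11.7, 15.4 and 15.1% in W465A/W796A. Gata2, the blood stem cell factor, fell from 25.6% ± 7.32 to 9.20% ± 0.442 and stood at 13.0% ± 1.44 in W465A/W796A. Gata3, a T cell and trophoblast factor, had 13.0% ± 4.60, 6.12% ± 1.92 and 8.08% ± 0.42 in that order (SD, n = 3). The median regained share over the 3 genes of this group at or above 20% in WT was 23.2%, with 15.1% in Pax1, a sclerotome factor. Over the 11 widely expressed Fox factors it was 55.2%. Whether these groups differ was not tested. The 2 Fox factors of pluripotent cells were low: Foxd3 had a WT level of 3.26% ± 0.264 and Foxh1, a mediator of Nodal signalling, of 8.59% ± 2.29. Foxh1 had 2.41% ± 0.438 in W465A and 7.01% ± 2.41 in W465A/W796A.

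The effect of W796A with and without W465A was compared directly as a difference of differences. Its p-values test additivity on the log-odds scale of the logistic model. The minimum of 10 points and the printed values are in percentage points, a scale on which additivity was not tested. A difference of differences was called for 9 of the 74 bodies, where 24.5% of all bodies were called. All 9 were among the 34 bodies at or above 20% in WT, of which they made 26.5%. Over all genes at that level 27.3% were called. In all 9 the difference between cells with and without W796A was more positive where W465A was also replaced. They were Foxn2, Foxk1, Foxn3, Foxn1, Foxp4, Foxm1, Foxp2, Pax5 and Foxo3, of which 6 are widely expressed Fox factors. In Foxn2 the pooled level differed by -10.2 points between W796A and WT, and by 22.2 points between W465A/W796A and W465A (adjusted p = 0.0318). With no minimum difference 10 of these genes were called, where 26.1% of all were. By limma 0 of these genes and 3 of all 16714 were called, and by edgeR 3 and 2804 were called higher. With the offset the counts were 0 and 280, in the fit of the compared groups alone 0 and 0, and with no moderation of the spread 0 and 4. Without W796A replicate 2 they were 20 and 10963, and without WT replicate 2 they were 0 and 0.

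At the promoters the median WT level was 2.18%, against 0.859% over all 13783 promoters tested. In 35 of the 71 promoters, or 49.3%, it was under 2%, against 61.9% of all promoters. Under 2% in every library were 16 of the 71 and 6540 of all 13783. In W465A 9 of the 71 fell, where 15.3% of all promoters were called lower, and 7 of these 9 started at or above 20%. In W464A/W465A 9 fell, where 16.7% of all were called, and in W464A/W465A/W796A 9, where 16.9% were. The genes were Foxn1, Foxi1, Foxs1, Nkx6-3, Foxm1, Lhx3, Foxi2, Nkx2-5 and Foxr1 in all of these comparisons. All 7 passing promoter CpGs of Nkx2-5 lay in the window printed above, which overlaps a coding exon 272 to 471 bp downstream of a start. For Foxs1, 12 of the 18 lay in its window, which overlaps a coding exon 227 to 426 bp downstream. The sequence upstream of the start was thus not measured for Nkx2-5. With no minimum difference 25 were lower in W465A (34.2% of all), 30 in W464A/W465A (36.8% of all), 30 in W464A/W465A/W796A (39.1% of all) and 5 in W465A/W796A (4.01% of all). Then 1 was higher in W465A (0.276% of all) and 1 in W464A/W465A (0.145% of all). The remaining promoter above 20% in WT, that of Pax8, had 14.3, 37.1 and 23.1% in WT and 13.6, 10.2 and 10.3% in W465A over 3 CpGs (adjusted p = 0.0778). The window of Foxs1 printed above lies in the promoter that had 55.7, 81.3 and 81.5% in WT, 29.6, 25.6 and 26.7% in W465A and 21.8, 19.1 and 19.8% in W464A/W465A. Nkx6-3, a factor of stomach and hindbrain, had 61.7, 81.7 and 77.6% in WT and 10.1, 21.6 and 18.3% in W464A/W465A. Both had groups that did not overlap.

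The promoter of Foxn1 was the most methylated, with 87.2, 88.2 and 100% in WT and 42.4, 41.0 and 15.6% in W465A, but it rested on 3 CpGs. Foxi1, an ear and kidney factor, had 65.4, 82.2 and 70.8% in WT and 25.4, 40.0 and 32.7% in W465A over 5 CpGs. Foxm1, which drives cell cycle genes, fell from 30.0% ± 6.76 to 8.70% ± 5.58 in W465A and stood at 25.4% ± 3.77 in W465A/W796A (SD, n = 3). Lhx3, of pituitary and motor neurons, had 22.4, 29.1 and 36.7% in WT, 16.0, 8.73 and 6.04% in W465A and 13.1, 9.44 and 5.74% in W465A/W796A. By the quasi-binomial fit neither was called in W465A/W796A against WT, with an adjusted p of 0.0669 for Lhx3 and 0.665 for Foxm1. Promoters were not tested for W465A/W796A against W465A, and whether these genes differ was not tested. Libraries lay wholly below WT in 23 promoters in W465A (33.8% of all), 34 in W464A/W465A (39% of all), 27 in W464A/W465A/W796A (39.4% of all) and 13 in W465A/W796A (18% of all), and wholly above it in 1 in W464A/W465A (1.01% of all). For Foxi2 and Foxr1 libraries of WT and W465A overlapped, and for Foxr1 also those of WT and W464A/W465A/W796A. In W465A/W796A 0 promoters of these genes were called against WT, where 2.03% of all were called lower. Unadjusted p was under 0.05 in 19 of the 71 and in 3493 of all 13783, and limma and edgeR called 0 of the 71. With the offset for library level the promoter of Foxs1 stayed called lower in all of W465A, W464A/W465A and W464A/W465A/W796A, and that of Nkx6-3 in W464A/W465A. Over all promoters 260, 393 and 361 were then lower in these groups. Without W465A replicate 3 or without WT replicate 2 the count for W465A was 5, and over all promoters 1725 and 1115 were lower.

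**Figure D4:**
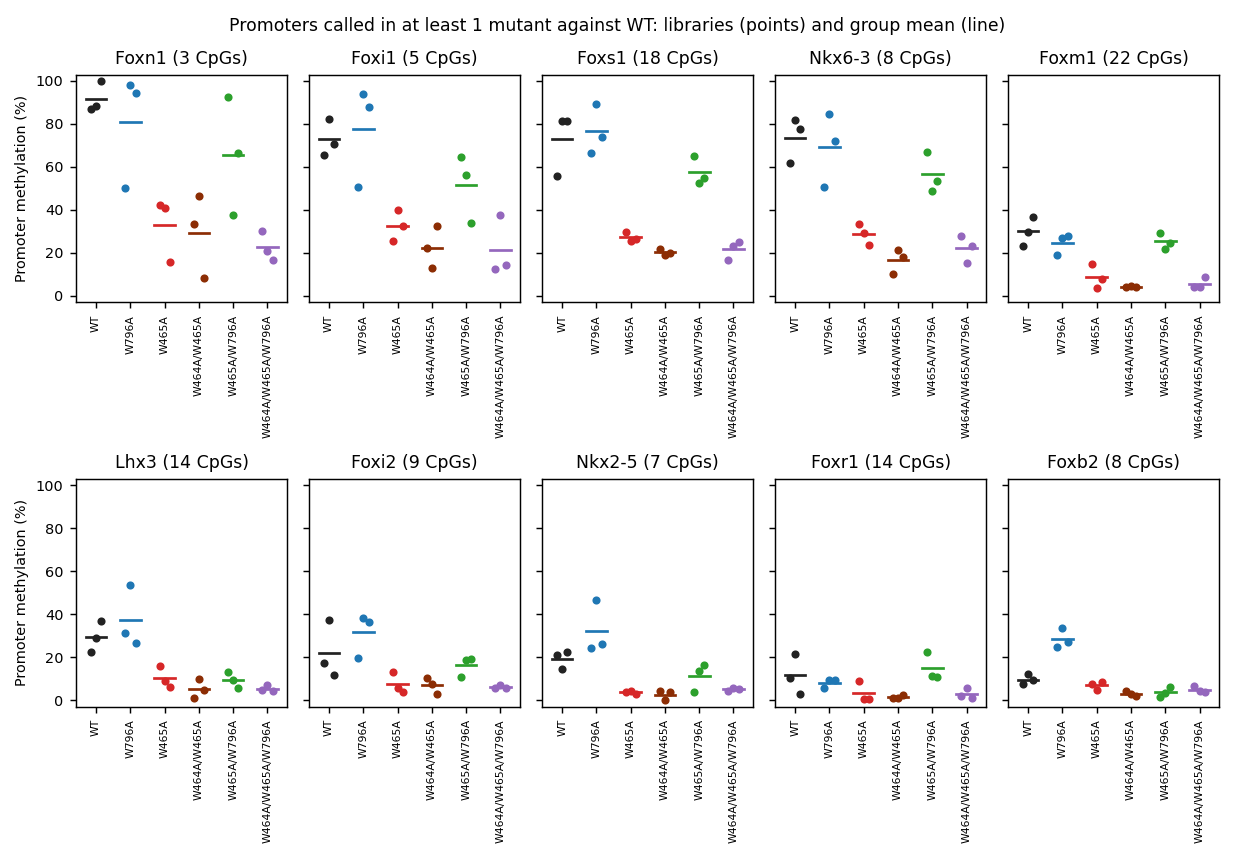
Promoter methylation (%) of the 9 promoters called lower than WT in W465A, W464A/W465A and W464A/W465A/W796A, and of Foxb2, with a point per library and a line at the mean of each group of 3. Foxn1, Foxi1, Foxs1 and Nkx6-3 stand at 55.7% or more in every WT library, and Foxb2 is high in the 3 W796A libraries alone.

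In W796A 1 promoter rose, that of Foxb2, where 0.16% of all promoters were called higher. Foxb2, a forkhead factor of the developing brain, had 7.32, 12.1 and 9.38% in WT and 24.6, 33.6 and 27.1% in W796A over 8 CpGs, a rise by 17.9 points (adjusted p = 0.0192). With no minimum difference it was again 1 promoter, where 0.377% of all were higher. In the other 4 groups its mean lay between 3.03 and 6.85%. With a block for replicate number over all libraries the adjusted p was 0.00699, and with the block in the WT and W796A libraries alone it was 0.198. By limma it was 0.803 and by edgeR 0.729, and the call was lost without WT replicate 2 or W796A replicate 2. With the offset for library level the difference was 9.70 points, just under the minimum. Over its alternatives the adjusted p ran from 0.00242 to 0.822, the latter in the quasi-binomial fit of the compared groups alone, with 20 of 28 keeping the call. Most of these 20 left out a library of the other 4 groups, which keeps the difference at 17.9 points. Dropping the minimum difference could lose no call. With 1000 bp either side of the start the difference was 2.87 points. In the body of Foxb2 the levels were 0.537, 2.94 and 2.52% in WT and 1.77, 4.06 and 1.94% in W796A.

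The mean W796A level lay above WT in 59 of the 71 promoters and below it in 12, where 63.5% of all promoters were higher. Unadjusted p was under 0.05 in 18, all of them higher, against 13.0% of all promoters in either direction and 10.3% in that one. The median share of WT was 152% in these promoters, 165% in those of the other developmental transcription factors and 114% over all promoters. Libraries did not overlap, with W796A higher, in 15 promoters, against 7.42% of all, and with W796A lower in 1, against 1.78% of all. The higher ones included Foxa2, Foxb1, Foxb2, Foxc1, Foxd3, Foxf2, Foxj3, Lhx5, Lhx6, Nkx1-1, Nkx2-2, Nkx2-5, Nkx6-2 and Pax9. The 1 lower promoter was that of Pax7, with 2.69, 1.59 and 3.92% in WT and 0.444, 1.56 and 0.476% in W796A. Lhx6, of cortical interneurons, had 4.07, 12.6 and 10.6% in WT and 13.1, 24.3 and 15.5% in W796A (adjusted p = 0.153). Nkx2-2 had 2.37, 8.54 and 11% in WT and 15.9, 12.3 and 13.6% in W796A (adjusted p = 0.223). Foxb1, Foxb2, Lhx5 and Nkx1-1 differed in the same direction at the promoter and, except for Foxb2, without overlap in the body.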

How the data were processed

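The deposited table gives, per library and CpG, counts of methylated reads and of all reads, made by the authors. Per the submitters' processing notes, cutadapt 1.2.1, Bismark 0.18.1, Bowtie 1.2 and the build GRCm38 (mm10) were used, with roles and settings not given. All positions matched CpGs of the reference. Duplicate removal and bisulfite conversion are not given in the sources used here, and the reads carry no molecular identifiers, so errors beyond counting can only be read from the libraries.

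Counts were summed per promoter and body over CpGs with at least 5 reads in all 18 libraries, so a long body is weighted to its covered, CpG-rich parts. A quasi-binomial logistic model over the 6 groups was fitted to all autosomal protein-coding genes, with the overdispersion moderated by the method of limma's squeezeVar, two-sided F tests and Benjamini-Hochberg adjustment over all genes of a region type. It was tested on simulated data. Alternatives used limma 3.58.1 on log2 ratios with 0.5 added to counts and edgeR 4.0.16 in R 4.3.3. Levels are means of libraries, and called differences are pooled over reads.

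The members and gene lists were chosen with earlier results of these data known. Named genes are a set of lineage examples, the called promoters and the 8 most methylated in WT, the 5 largest non-overlapping body differences of each comparison, the 3 smallest above 20% in WT, the genes called above WT and those called for the difference of differences. The bodies and promoters named for not overlapping between WT and W796A, and the extremes of the level range, were chosen after their values were seen. Equal replicate numbers pair no samples by label. Deviations from the group mean correlated over 0.1 for every pair in 1 of 15 group pairs, WT with W796A (0.186 to 0.369 over bodies, 0.137 to 0.663 over promoters), so the blocked value is given for that comparison. The sequence windows were moved from the start site to avoid UTR bases. Cells with empty vector were not analysed here. Some results are not reported here.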

Additional observations from a re-analysis of the deposited data

Results flagged for a closer look

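In 9 bodies the effect of W796A differed between cells with and without the W465A replacement, by the test of additivity on the log-odds scale of the quasi-binomial model. The percentage points below were not themselves tested. The effect with W465A minus the effect without it was 32.4 percentage points in Foxn2, 27.0 in Foxk1, 23.8 in Foxn3, 23.3 in Foxn1, 21.7 in Foxp4, 20.9 in Foxm1, 19.1 in Foxp2, 17.2 in Pax5 and 15.4 in Foxo3. The adjusted p values lay between 0.0318 and 0.0465, close to the threshold, and 24.5% of all bodies were called. Among bodies at or above 20% in WT, 26.5% of these families and 27.3% of all were called. Of these genes 0 were called by limma, with the offset for library level, with no moderation of the spread, in the fit of the compared groups alone, or without WT replicate 2, W465A replicate 2 or 3, or W465A/W796A replicate 1 or 3. In each of the 9 the pooled level in W796A lay below WT, with differences of -10.2 to -1.76 points, and that in W465A/W796A lay above W465A, with differences of 12.9 to 25.0 points. The 4 groups share no library, but W465A replicate 1 had the highest overall level of its group. When this library was left out, all 62 single-gene results, with these 9 among them, kept their calls. Its part in these values was not tested further.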

How the results depend on the processing

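With at least 10 reads per CpG, 26 bodies were called lower in W464A/W465A and 13 in W465A/W796A, 9 were higher in W465A/W796A than in W465A, and 5 departed from additivity (the difference of differences). Promoter calls were then 3 in W465A, 4 in W464A/W465A, 4 in W464A/W465A/W796A and 0 in W796A, with 68 bodies and 53 promoters tested. Over all genes these body counts were 7741, 2469, 4427 and 1569 of 10204, and the promoter counts 742, 824 and 836 lower and 26 higher of 10220. Without a minimum difference the bodies called lower were 70 in W464A/W465A/W796A, 71 in W465A, 70 in W464A/W465A and 47 in W465A/W796A, and the promoters called in either direction 30, 26, 31 and 5. Over all genes 16392, 16268, 16348 and 9568 of 16714 bodies were then lower, and 5396, 4720, 5067 and 553 of 13783 promoters. With the offset for library level the bodies called in these groups were 4, 4, 5 and 0, with 0 for W465A/W796A against W465A and 0 for additivity, and the promoters 1 in W465A, 2 in W464A/W465A, 1 in W464A/W465A/W796A and 0 in W796A. Over all genes 6954, 6008, 6539 and 519 bodies were then lower, 53 higher than W465A and 280 higher for additivity, and 260, 393 and 361 promoters lower and 59 higher. By limma W465A/W796A against WT gave 9 bodies (5408 over all genes), additivity 0 (3) and the W796A promoters 0 (0). By edgeR additivity gave 3 (2804 higher) and the W796A promoters 0 (2 higher). Fits of the compared groups alone gave 0 and 0 for these, also over all genes, and no moderation of the spread gave 0 (4) for additivity. The replicate block gave 5 (2400) for additivity, and, in the WT and W796A libraries alone, 0 for the W796A promoters. It changed no other count by over 1.5 times. Promoters of 1000 bp either side gave 3 calls in W465A/W796A (760 of 14658) and 0 in W796A (16 higher).

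Leaving out single libraries gave, for bodies, 35 to 38 calls in W465A, 38 to 43 in W464A/W465A, 37 to 42 in W464A/W465A/W796A, 0 to 26 in W465A/W796A against WT, 0 to 21 against W465A and 0 to 20 for additivity. For promoters it gave 5 to 10, 6 to 11 and 7 to 11 in the first 3 of these groups, 0 to 3 in W465A/W796A and 0 to 2 in W796A. Additivity had 0 calls without WT replicate 2, W465A replicate 2 or 3, or W465A/W796A replicate 1 or 3, also over all genes.

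Of 1711 alternative values of 62 single-gene results, 1429 kept direction and side of the threshold, 276 kept the direction alone and 6 reversed. The direction could change only at 10 reads, with the offset, with other region limits or without a library of a compared group. The other alternatives kept the same pooled difference, and dropping the minimum difference could lose no call. The tally is therefore no measure of how stable the directions are. Foxp2 had a departure from additivity of -1.29 points at 10 reads. With the offset, promoter differences from WT were 1.57 points for Foxi2 in W464A/W465A, 1.04 for Lhx3 in W465A, and 0.291 for Foxi2, 0.0615 for Foxr1 and 2.04 for Nkx2-5 in W464A/W465A/W796A. The cause was not tested.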
